A study of Mus musculus with 16 samples.

Results

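The 10 genes of calcium release and uptake followed here were read across the 4 groups of the study. They were taken by symbol from the count table, 10 of 46078 genes, and 10 of 10 passed the filter on low counts that kept 14897 genes. They fall into 8 genes of muscle calcium handling, Ryr2, Jph2, Casq2, Cacna1c, Cacna1s, Atp2a2, Pln and Slc8a1, and 2 genes that nearly every cell uses, Calr and Stim1. They were chosen by their fold changes between miR-106b and control in polyA RNA, which were known when they were picked, so their polyA values below are a description without a test. The cells were labelled as a cultured line of juxtaglomerular (JG) cells, which make renin in the kidney, engineered so that the renin promoter drives YFP. All cultures were transfected, either with a control miRNA precursor that is not mammalian or with miR-106b, and were harvested 48 h later. PolyA RNA was made from 4 control and 4 miR-106b cultures. RNA held by Ago2, the protein that carries miRNAs in the RNA-induced silencing complex (RISC), was made by immunoprecipitation (Ago2-IP) from separate cultures, 4 for each transfection. A ratio of Ago2-IP to polyA RNA therefore compares different cultures of 1 engineered line, which were also harvested differently, directly for polyA RNA and after trypsin for Ago2-IP.

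In heart muscle a beat starts when the L-type calcium channel lets calcium through the plasma membrane, which opens the ryanodine receptor and releases calcium from the sarcoplasmic reticulum. The reticulum holds its calcium on calsequestrin, junctophilin keeps its membrane close to the plasma membrane, and the SERCA pump, held back by phospholamban, takes the calcium up again while the sodium-calcium exchanger removes some from the cell. Other cells use the same ions with other parts, among them calreticulin as the calcium buffer of the endoplasmic reticulum and STIM1 as the sensor that opens calcium entry when the store is empty.

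The mature strand of the transfected miRNA is shown with its seed, bases 2 to 8, in capitals (RefSeq, GRCm38.p6, chr5:138165787-138165807, minus strand). Below it stand the partial seed sites in the 3′UTRs of the 10 genes, which match bases 2 to 7 and are followed by A (GENCODE M21, GRCm38, longest 3′UTR of each gene), with the site in capitals, since the seed is how Ago2 finds a target. They lie in Pln at chr10:53344355-53344361 on the plus strand and in Slc8a1 at chr17:81388169-81388175 and chr17:81382354-81382360 on the minus strand.
mmu-miR-106b-5p: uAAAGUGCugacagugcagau
Pln site: tctagcaaggtCACTTTAtagctccagtc
Slc8a1 first site: cctcctccgaaCACTTTAaacattacttg
Slc8a1 second site: atttctaaatcCACTTTAgcaaacattat

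The full match to bases 2 to 8, GCACTTT, was in 0 of 10 of these 3′UTRs, where it was in 15.3% of 13234 tested genes with an annotated 3′UTR. The match to bases 2 to 7 followed by A, CACTTTA, was in 2 of 10, Pln once and Slc8a1 in 2 places, and 23.0% of all those genes held at least one of both forms. Both Slc8a1 sites lie beyond the end of the gene as the count table places it. The 3′UTRs searched ran from 692 bases in Cacna1s to 15586 bases in Slc8a1, beside a median of 1398 bases over all those genes. A match is a description of the letters and not of binding.

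Depth and cell identity bear on every value. The libraries held 2579086 to 9459585 counts on genes, and the median was 6450099 for polyA control, 3645938 for polyA miR-106b, 3638860 for Ago2-IP control and 3264122 for Ago2-IP miR-106b. Ren1, the renin gene that defines JG cells, was listed with 0 of 70668386 counts, a limit of 0.0425 CPM (counts scaled to a library total of 1000000) for 3 counts over all libraries. The 12 cardiomyocyte markers, which include Myh6, Actc1 and Tnnt2, all had counts in each group, though only 3 to 21 for Myl7. Their summed level ran from 19876 to 28238 CPM for polyA control and from 38728 to 67041 CPM for polyA miR-106b, and in Ago2-IP RNA from 89904 to 96114 CPM for control and from 87234 to 95852 CPM for miR-106b. Of 12 skeletal muscle markers 4 passed the filter, and Myod1 had 5 counts in all 16 libraries together. Others of this list were abundant. Ckm had means from 724 CPM in polyA control to 2813 CPM in Ago2-IP control, and Acta1 from 216 to 858 CPM. The labels do not give a heart or muscle source for any library, and Ren1 at 0 did not bear out the label of JG cells. The other JG markers differed. Mean CPM in polyA control and polyA miR-106b was 52.7 and 62.9 for Foxd1 and 15.9 and 11.5 for Tbx18. It was 2.20 and 4.43 for Gja5 and 0.0925 and 0.144 for Akr1b7. The paper reported renin mRNA and renin secretion in its JG cells by other assays.

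Per length, Atp2a2 was the highest of the 10 genes in each group and Cacna1s the lowest. These levels are CPM per kilobase of exon, on GENCODE M21 gene models. In polyA control they were 522 ± 65.2 (SD, n = 4) for Atp2a2, 328 ± 11.02 for Calr, 83.7 ± 13.1 for Jph2, 56.0 ± 7.22 for Pln, 39.2 ± 6.84 for Casq2, 14.8 ± 2.49 for Ryr2, 6.73 ± 1.004 for Cacna1c, 3.88 ± 0.463 for Stim1, 1.70 ± 0.239 for Slc8a1 and 0.405 ± 0.0897 for Cacna1s. Of neighbours in that order, only the libraries of Pln and Casq2 overlapped. In Ago2-IP control Calr stood just above Casq2 with 154 ± 7.43, below Jph2 at 328 ± 13.5 and Pln at 215 ± 7.31, and overlapped Casq2 at 153 ± 6.28. Stim1 had 3.61 ± 0.453 CPM per kilobase in Ago2-IP control and Slc8a1 6.54 ± 0.139, an order that is not read for the reason that follows. Slc8a1 is too low on this scale, because its model of 18807 bases is longer than the gene in the count table. Most of its 3′UTR of 15586 bases lies beyond the end of that gene. Its place in the order of the 10 genes is therefore not set, in polyA control or in Ago2-IP control.

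**Figure D1:**
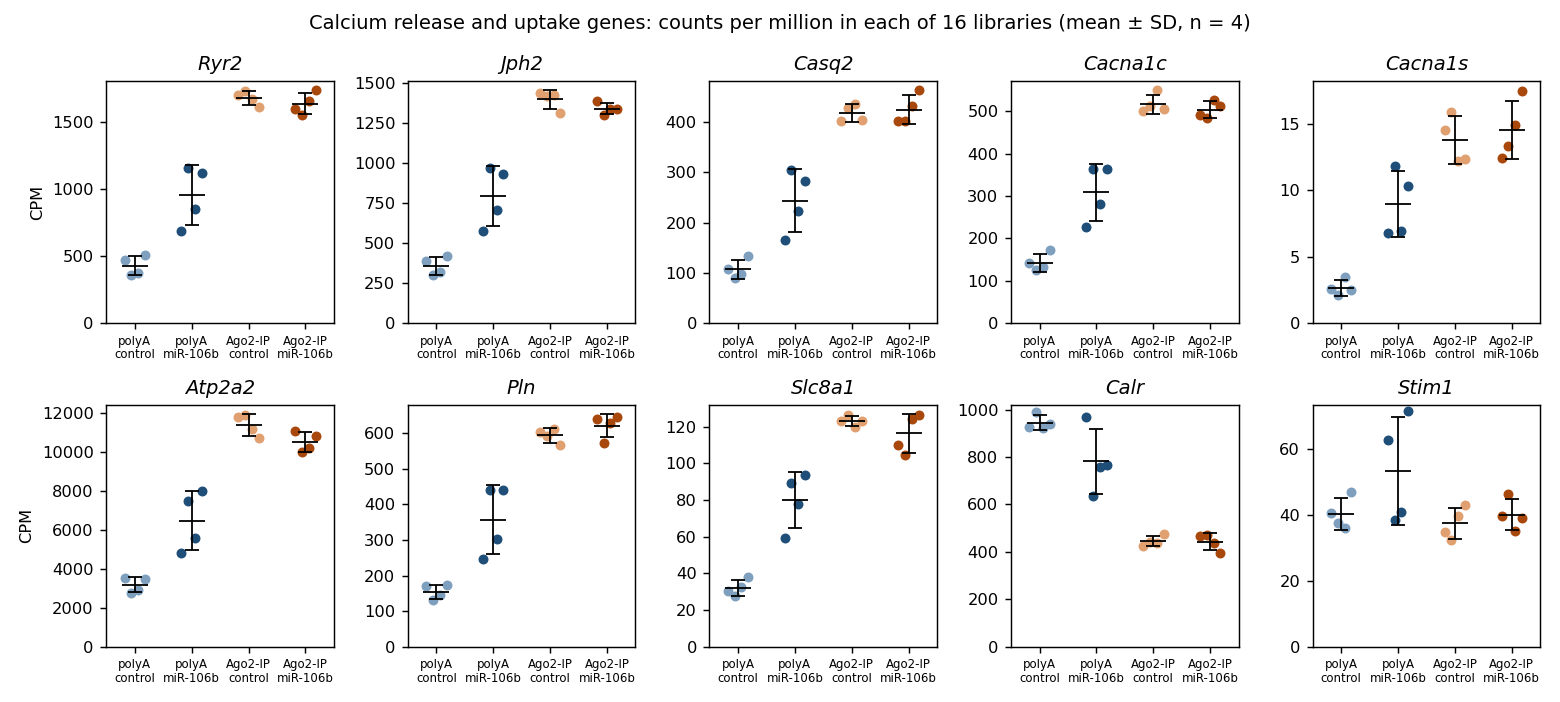
CPM (vertical axes, each from 0) of the 10 genes in the 16 libraries, a point for each library in the 4 groups on the horizontal axis, with the mean and SD of 4 libraries in black. The 8 muscle genes are lowest in polyA control, between the others in polyA miR-106b and highest in both Ago2-IP groups, while Calr is highest in polyA control at 944 CPM and Stim1 overlaps in all groups.

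Ryr2, the ryanodine receptor of heart muscle and the release channel itself (chromosome 13, 11553102 to 12106945, minus strand), had 468, 361, 371 and 507 CPM in the polyA control libraries and 686, 1155, 851 and 1119 CPM with miR-106b. No control value reached the lowest value with miR-106b, and the miR-106b libraries were the more spread, with replicate 1 lowest and replicate 2 highest. The fitted log2 fold change was 1.19 (SE 0.186), a 2.28-fold difference. All 8 muscle genes had non-overlapping polyA groups in this direction, where 16.5% of all tested genes did and 22% in the other, a count that the choice of genes fixes. At an adjusted p under 0.05 40.5% of tested genes were called. In bulk RNA a larger share of cells of one type and more RNA per cell cannot be told apart.

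Jph2, the junctophilin that ties the reticulum to the plasma membrane (chromosome 2, 163336242 to 163397993, minus strand), ran from 299 to 418 CPM in polyA control and from 571 to 965 CPM with miR-106b, and the fitted log2 difference was 1.18 (SE 0.182). Casq2, cardiac calsequestrin (chromosome 3, 102086415 to 102146514, plus strand), had 108, 89.6, 98.4 and 133 CPM in control and 165, 305, 223 and 282 CPM with miR-106b, and the fitted log2 difference was 1.21 (SE 0.189). In both genes, as in Ryr2, replicate 1 was the lowest miR-106b library and replicate 4 the highest control library.

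Of the plasma membrane channels, Cacna1c, the pore of the L-type channel of heart and smooth muscle (chromosome 6, 118587240 to 119196418, minus strand), ran from 124 to 173 CPM in polyA control and from 227 to 364 CPM with miR-106b, and the fitted log2 difference was 1.14 (SE 0.168). Cacna1s, the pore of the skeletal muscle L-type channel (chromosome 1, 136052750 to 136119822, plus strand), had 2.54, 2.11, 3.49 and 2.46 CPM in control and 6.81, 11.8, 6.89 and 10.3 CPM with miR-106b. Its log2 fold change of 1.78 (SE 0.281) was the largest of the 10 and above that of 99.4% of tested genes, against 92.7% for Ryr2.
This rise rested on few reads. Cacna1s had 14 to 23 counts in each polyA control library and 24 to 45 in each miR-106b library, 73 and 129 in sum. The ratio of the summed CPM was 3.38-fold, beside 2.23-fold for Ryr2. An exact 95% interval of 2.52 to 4.57 for Cacna1s covers counting error only. It leaves out the spread between cultures and is no test of Cacna1s against Ryr2. The libraries are not strand-specific, and 1309 of the 6550 exon bases of Cacna1s are shared with the antisense gene Gm37759, so reads there cannot be assigned to one of them.

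Of the genes that clear calcium, Atp2a2, the SERCA pump (chromosome 5, 122453513 to 122502225, minus strand), had 3542, 2771, 2898 and 3485 CPM in polyA control and 4787, 7459, 5591 and 8000.3 CPM with miR-106b. Pln, phospholamban (chromosome 10, 53337667 to 53345987, plus strand), had 169.6, 131, 144 and 172 CPM in control and 247, 439, 304 and 440.5 CPM with miR-106b. Slc8a1, the sodium-calcium exchanger (chromosome 17, 81373105 to 81738377, minus strand), had 30.1, 27.4, 32.7 and 37.9 CPM in control and 59.1, 89.0, 77.8 and 93.8 CPM with miR-106b. No library of one group reached into the other in any of these genes. The log2 fold changes were 1.05 (SE 0.194) for Atp2a2, the smallest of the 8 muscle genes, 1.24 (SE 0.189) for Pln and 1.34 (SE 0.161) for Slc8a1. Pln shares 141 exon bases with Cep85l on the other strand.

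The ubiquitous genes differed from this. Calr, calreticulin (chromosome 8, 84841850 to 84846934, minus strand), had 926, 991, 922 and 939 CPM in polyA control and 968, 636, 757 and 767 CPM with miR-106b. Replicate 1 of miR-106b, the miR-106b library lowest in the muscle genes, was the highest for Calr and lay within the control range, and the other 3 lay below it. The log2 fold change was -0.25 (SE 0.138).
Stim1, the store sensor (chromosome 7, 102267806 to 102437319, plus strand), had 40.6, 37.5, 36.1 and 46.9 CPM in control and 62.6, 38.3, 40.8 and 71.4 CPM with miR-106b. The groups overlapped, with 2 of the miR-106b libraries within the control range and 2 above it, and the log2 fold change was 0.43 (SE 0.197). Across the 8 muscle genes the log2 fold changes ran from 1.05 to 1.78 with a median of 1.20, beside a median of -0.05 over all tested genes.

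The Ago2-IP libraries of the same transfections came from other cultures and were not used to choose the genes, so their comparison was tested. None of the 10 genes passed the test of miR-106b against control in Ago2-IP RNA (edgeR's quasi-likelihood test with Benjamini-Hochberg adjustment over 14897 genes), and neither did any other gene, 0% of those tested, with 826 genes at an unadjusted p under 0.05. DESeq2 called 2 genes, neither of them among the 10. With 1 library left out the count over all genes reached 40 (without miR-106b replicate 4), 8 (without control replicate 4) and 4 (without miR-106b replicate 1), and none of the 10 was called in any of these. Ryr2 had 1699.9, 1729, 1673 and 1612 CPM in Ago2-IP control and 1599.8, 1552, 1657 and 1737 CPM with miR-106b, and the fitted log2 difference was -0.03 (SE 0.034). Cacna1s, with 14.6, 15.9, 12.2 and 12.3 CPM in control and 12.4, 13.3, 14.9 and 17.4 CPM with miR-106b, differed by 0.09 (SE 0.18) on the log2 scale. In both genes the groups were interleaved.
Atp2a2 came closest to a difference, with 11780.4, 11906, 11156 and 10698 CPM in Ago2-IP control and 11075, 9969, 10188 and 10792 CPM with miR-106b. Its groups overlapped, the log2 fold change was -0.11 (SE 0.044), and edgeR gave an unadjusted p of 0.033 and an adjusted p of 0.857. Without the filter on low counts Atp2a2 passed the threshold, with an edgeR adjusted p of 0.0110 among 27811 genes. Jph2 ran from 1310.3 to 1434 CPM in Ago2-IP control and from 1298 to 1383 CPM with miR-106b, Casq2 from 403 to 437 and from 402 to 464, and Pln from 566 to 612 and from 574 to 645. The other fitted changes lay between -0.08 (Slc8a1) and 0.09 (Stim1), with Calr at -0.0034 (SE 0.048). In all 10 genes the groups overlapped, where 1.58% of tested genes did not overlap in the higher direction and 1.66% in the lower.

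Between RNA kinds the 8 muscle genes and Calr went opposite ways. The polyA libraries on one side of this comparison also entered the choice of the genes, so in both transfections the values of the 10 genes are a description without a test. In control transfection all 8 muscle genes had higher levels in Ago2-IP than in polyA RNA, with groups that did not overlap. Of all tested genes 26.1% did not overlap in this direction, 35.1% were called higher by edgeR and 69.7% were called in either direction, and nothing is read from the members' count against these shares. The log2 fold changes ran from 2.16 for Atp2a2 to 2.69 for Cacna1s with a median of 2.27, beside -0.03 over all tested genes.
Ryr2 was 4.90-fold higher (log2 2.29, SE 0.147). Cacna1s was 6.45-fold higher (log2 2.69, SE 0.235), with 45 to 57 counts in each Ago2-IP control library. Cacna1c, the other L-type pore, was 4.52-fold higher (log2 2.18, SE 0.132).
Calr had 425, 442, 435 and 474 CPM in Ago2-IP control, each below every polyA control library, and was 1.71-fold lower (log2 -0.77, SE 0.107), where 34.6% of tested genes were called lower and 44.5% did not overlap in that direction. Stim1 had 34.8, 32.4, 39.5 and 42.9 CPM, overlapping its polyA control libraries (log2 0.22, SE 0.168). With scaling by library size alone the median of all genes moved to -0.35 on the log2 scale, the muscle genes kept log2 differences of 1.84 or more, Calr stood at -1.09 and Stim1 at -0.10, so that the direction of Stim1 depends on the scaling. Under that scaling 4145 of 10929 called genes were higher, against 5224 of 10381 with the TMM scaling of the fits. CPM values and the overlap of groups rest on library size alone.

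**Figure D2:**
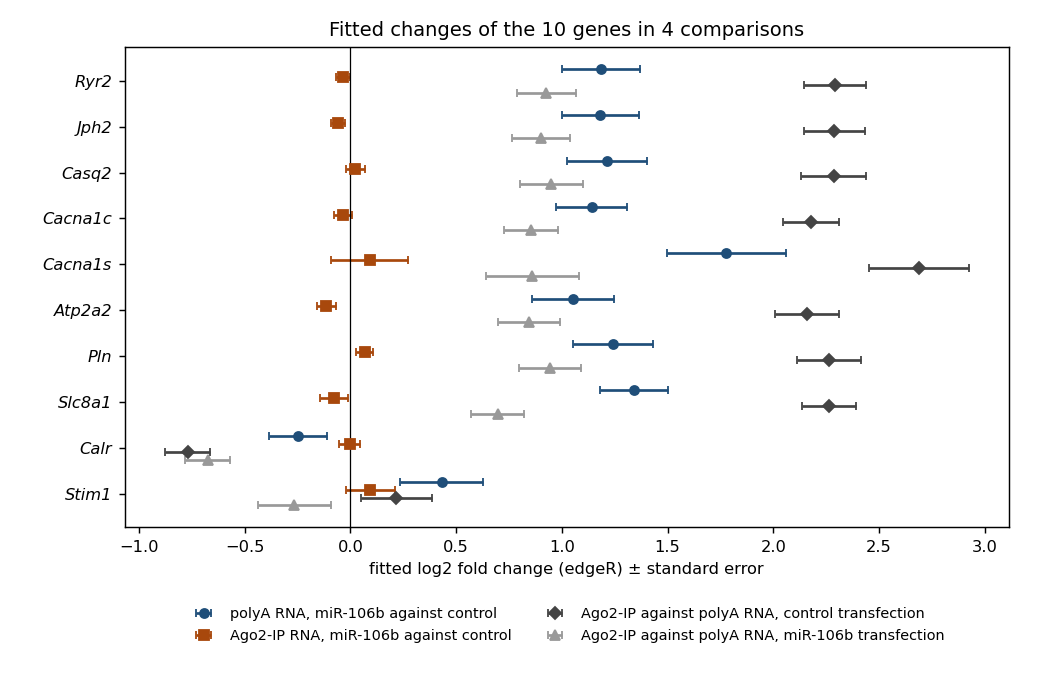
Fitted log2 fold changes of the 10 genes (horizontal axis) in 4 comparisons, with bars of 1 standard error. The 8 muscle genes lie at 1.05 to 1.78 for polyA RNA, near 0 for Ago2-IP RNA and at 2.16 to 2.69 and 0.70 to 0.95 for Ago2-IP against polyA RNA in control and miR-106b transfection, while Calr lies at or below 0 in each.

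In miR-106b transfection the 8 muscle genes had smaller values of this contrast, a difference not tested. This contrast uses the polyA miR-106b libraries, which entered the choice as well. The log2 fold changes of Ago2-IP against polyA RNA ran from 0.70 (Slc8a1, SE 0.12) to 0.95 (Casq2, SE 0.149), and in all 8 the groups did not overlap. Of all tested genes 13.9% did not overlap in this direction, 21.9% were called higher and 46.4% in either direction. Calr was 1.60-fold lower (log2 -0.67, SE 0.107), where 24.5% were called lower and 25.7% did not overlap in that direction. Stim1 was at -0.27 (SE 0.172), and at -0.41 under library size scaling.
The change of the Ago2:polyA ratio with miR-106b, the difference of these contrasts, holds the polyA contrast in it and is given without a test. It was -1.37 for Ryr2, -1.83 for Cacna1s and -1.57 for Slc8a1 on the log2 scale, and ran from -1.83 to -1.31 over the 8 muscle genes. Calr changed by 0.10 (SE 0.151) and Stim1 by -0.48 (SE 0.240). Over all tested genes 19.7% were called lower and 7.61% higher in this ratio.

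Within a library the muscle genes kept nearly fixed proportions. Per 100 Ryr2 counts, Jph2 had between 76.8 and 86.5 counts in all 16 libraries, a coefficient of variation (CV) of 2.73%, while Ryr2 itself ran from 361 to 1737 CPM. The CV was 4.25% for Casq2, 4.72% for Pln, 5.77% for Cacna1c, 7.13% for Atp2a2 and 9.97% for Slc8a1. Calr per 100 Ryr2 counts ran from 22.8 to 274, a CV of 95.4%, and Stim1 from 1.87 to 10.4, a CV of 65.4%. Calr was high against Ryr2 in polyA control at 185 to 274, lower in polyA miR-106b at 55.0 to 141 and lowest in the Ago2-IP libraries at 22.8 to 30.4.
With 14 to 60 counts per library, Cacna1s had the largest CV of the muscle genes, 20.1%, with counting error not taken out. It had 0.638 ± 0.205 (SD, n = 4) counts per 100 Ryr2 counts in polyA control and 0.937 ± 0.0946 in polyA miR-106b, and in Ago2-IP RNA 0.818 ± 0.0874 for control and 0.884 ± 0.0950 for miR-106b. The polyA control libraries ran from 0.485 to 0.938 and overlapped each other group, with replicates 1, 2 and 4 lower than all other libraries and replicate 3 within the range of those with miR-106b. The larger rise of Cacna1s than of Ryr2 was not separated from the spread between polyA control libraries.
Pln against Atp2a2, the inhibitor against its pump, was 4.73 to 4.98 counts per 100 Atp2a2 counts in polyA control and 5.15 to 5.89 with miR-106b. In the separate Ago2-IP cultures it was 4.98 to 5.49 in control and 5.75 to 6.16 with miR-106b. In both RNA kinds each miR-106b library was above each control library, a pair of genes singled out after their values were seen and not tested.

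**Figure D3:**
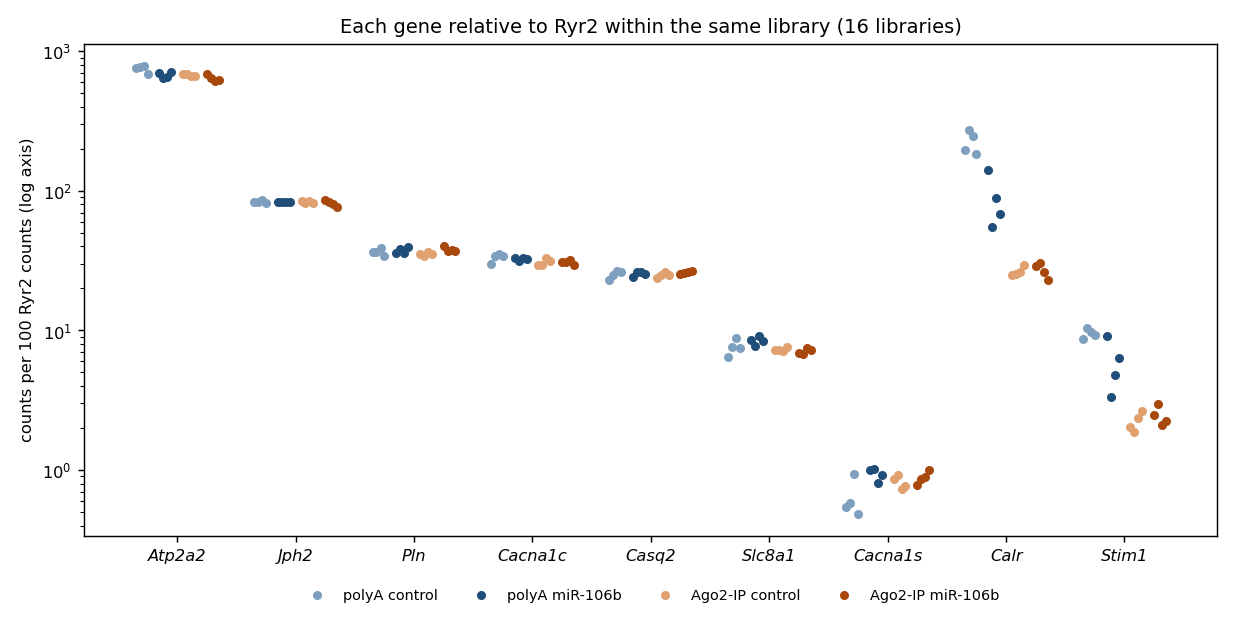
Counts of each gene per 100 Ryr2 counts of the same library (vertical log axis), a point for each of 16 libraries, coloured by group. The muscle genes from Atp2a2 to Slc8a1 form level rows across the groups, Cacna1s scatters with a CV of 20.1%, and Calr and Stim1 fall from polyA control to the Ago2-IP groups.

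The markers of cardiomyocytes moved with the muscle calcium genes. Of 12 markers 11 were tested, and 11 of 11 were higher in polyA RNA with miR-106b (median log2 1.23), where 19% of all tested genes were, and 11 of 11 in Ago2-IP against polyA control (median 2.29), where 35.1% were, with 0 called for miR-106b in Ago2-IP RNA, where 826 of all genes had an unadjusted p under 0.05. The 8 muscle genes summed to 0.381% to 0.493% of all counts in polyA control and to 0.675% to 1.12% in polyA miR-106b, and in Ago2-IP RNA to 1.52% to 1.67% for control and 1.44% to 1.57% for miR-106b. Per 100 CPM of the marker sum they had 15.95 to 19.1 CPM in every library, with 17.5 to 19.1 in polyA control and 16.1 to 17.4 in polyA miR-106b. Markers of other cell types were counted likewise, and the lists were chosen with earlier results of these data known. Endothelial markers were higher in 5 of 5 genes in polyA RNA with miR-106b (median log2 1.14) and in 5 of 5 in Ago2-IP against polyA control (median 2.18). Blood markers were higher in 5 of 5 in both, with medians of 1.24 and 2.33. Smooth muscle and mural markers were higher in 4 of 8 and lower in 1 in polyA RNA (median 0.96), and higher in 6 and lower in 2 between RNA kinds (median 1.56). Of the 12 skeletal muscle markers 4 were tested, with 2 higher in polyA RNA (median 1.17) and 3 higher between RNA kinds (median 2.23), and none lower. Of the JG markers 3 were tested, with 1 higher in polyA RNA, and 1 higher and 2 lower between RNA kinds. The shares over all tested genes were 19% higher and 21.5% lower in polyA RNA, and 35.1% and 34.6% between RNA kinds. The polyA split of 2836 higher and 3198 lower genes turned over with DESeq2 size factors (3163 and 2642) and with the DESeq2 test (3216 and 2687). It did so with no filter (2824 and 2730) and in 1 fit of all 16 libraries (3829 and 2408). Leaving out polyA control replicate 1 (2737 and 1834), 2 (2486 and 1640) or 3 (2579 and 1707), or miR-106b replicate 1 (3496 and 3208), turned it over too. The part of the other cell types in the values of the 8 muscle genes was not tested.

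**Figure D4:**
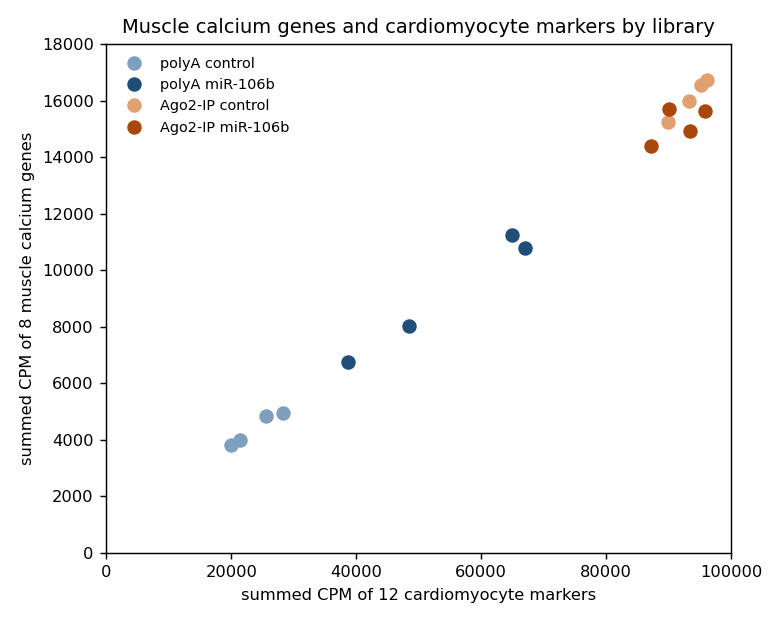
Summed CPM of the 8 muscle calcium genes (vertical axis) against the summed CPM of 12 cardiomyocyte markers (horizontal axis), a point for each library. The polyA control libraries lie lowest, at 3806 to 4928 CPM of the calcium genes, those of polyA miR-106b at 6748 to 11238 CPM, and both Ago2-IP groups together at 14396 to 16726 CPM.

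Which genes had the pattern most like a member was read from the root mean square (RMS) difference of centred log2 CPM over the 16 libraries, over 10955 genes whose mean reached 5 CPM. Nearest to Ryr2 were Dsp, Tnnt2, Tnni3, Ttn and Actc1, all genes of the desmosome or sarcomere, with RMS differences of 0.019 to 0.026. Jph2 ranked 31 in that order, Casq2 99, Pln 110, Cacna1c 169, Atp2a2 240, Slc8a1 398 and Cacna1s 1003, while Stim1 ranked 4443 and Calr 8280. Nearest to Cacna1s were Myct1, Inpp5d, Fcgr3, Fam213b and Tril, at 0.16 to 0.19, and these lower counts bring more noise. Nearest to Calr were Nr2f6, Numbl, Plxnb2, Arl8a and Marveld1, at 0.058 to 0.086.

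The other genes of calcium handling were read from a list of 74 in 8 roles, 73 of them in the table and 66 past the filter. The list was chosen with earlier results of these data known, so its shares beside those of all tested genes are a description. In polyA RNA with miR-106b 18 of 66 were higher (27.3%, against 19% of all tested genes) and 15 lower (22.7%, against 21.5%), with a median log2 fold change of 0.14 against -0.05. Without polyA control replicate 2 the 33 calls fell to 21. In Ago2-IP RNA 0 of 66 differed in edgeR and DESeq2, with 826 of all genes at an unadjusted p under 0.05. In Ago2-IP against polyA RNA of control transfection 32 of 66 were higher (48.5%, against 35.1%) and 24 lower (36.4%, against 34.6%). The 32 include Atp2a1, which passed the filter on low counts through Ago2-IP control alone, so that its call was fixed by the filter. They also include Cacnb4 and Cacng6, with means of 0.612 and 0.716 CPM in polyA libraries and 1.85 and 2.14 CPM in Ago2-IP libraries. Both polyA means are under the filter's 1 CPM, so these calls may be owed to the filter as well.
Among the 14 tested release channels and partners 6 were higher and 3 lower in polyA RNA, and 7 higher and 3 lower in Ago2-IP against polyA control. Trdn, triadin, which links calsequestrin to the ryanodine receptor, rose in polyA RNA (log2 1.42, SE 0.225, edgeR adjusted p = 7.0e-04), from 6.45 ± 1.66 CPM to 16.8 ± 2.88 CPM. Hrc, the histidine-rich calcium binder of the reticulum, rose from 319 ± 48.0 CPM to 765 ± 199 CPM (log2 1.29, SE 0.191, edgeR adjusted p = 6.8e-04). Casq1, the skeletal calsequestrin, had 1.56 ± 0.486 CPM against 3.22 ± 0.894 CPM (log2 1.03, SE 0.355, edgeR adjusted p = 0.0328). In Ago2-IP against polyA control Trdn was at 2.25 (SE 0.184), Hrc at 2.34 (SE 0.152) and Casq1 at 2.11 (SE 0.379), each past the threshold. Jph1, a paralogue of Jph2, rose by 0.79 (SE 0.213, edgeR adjusted p = 0.010) in polyA RNA and was at 1.78 (SE 0.171) in Ago2-IP against polyA control. Slc8a2, a paralogue of Slc8a1, rose by 2.102 (SE 0.445, edgeR adjusted p = 0.0026) in polyA RNA, with a mean of 2.72 CPM over its libraries. Fkbp1a and Fkbp1b, small proteins that bind ryanodine receptors, were not called higher. Jph1, Slc8a2 and both of these are named after their values were seen. Fkbp1a fell by 0.49 (SE 0.107, edgeR adjusted p = 0.0033) in polyA RNA and was at -0.55 (SE 0.0874, edgeR adjusted p = 6.3e-06) in Ago2-IP against polyA control. Fkbp1b did not pass the test in either, with an edgeR adjusted p of 0.0692 and 0.853.

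The other release channels differed by paralogue. Ryr1, the skeletal receptor, had 0.823 ± 0.338 CPM in polyA control and 1.12 ± 0.442 CPM with miR-106b and did not pass the test (edgeR adjusted p = 0.424), nor did it in Ago2-IP against polyA RNA of control transfection (edgeR adjusted p = 0.0960). It passed the filter on low counts through Ago2-IP miR-106b alone, where it had 2.52 ± 0.615 CPM, so its test in miR-106b transfection is not given. Ryr3 was below the filter, at 0.301 ± 0.222 CPM and 0.450 ± 0.333 CPM. Of the inositol trisphosphate receptors, release channels of muscle and other cells, Itpr3 fell by 1.18 (SE 0.212, edgeR adjusted p = 0.0012) and Itpr2 by 0.94 (SE 0.156, edgeR adjusted p = 8.0e-04) on the log2 scale, while Itpr1 was at 0.15 (SE 0.134, edgeR adjusted p = 0.402). Itpr3 was also lower in Ago2-IP than in polyA control, at -2.39 (SE 0.218), and so was Itpr2, at -1.17 (SE 0.141), whereas Itpr1 was higher, at 0.75 (SE 0.109), each past the threshold.

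Among pumps, Atp2a3, the SERCA of blood cells and endothelium, rose from 9.19 ± 1.12 CPM to 22.1 ± 7.33 CPM (log2 1.28, SE 0.242, edgeR adjusted p = 0.0015) and was at 2.30 (SE 0.186) in Ago2-IP against polyA control. Atp2a1, the fast skeletal SERCA, had 7 counts in the polyA control libraries together and 8 in those with miR-106b and did not pass the test (edgeR adjusted p = 0.283). In Ago2-IP RNA it had 21 counts with the control precursor and 3 with miR-106b, and since it passed the filter on low counts through Ago2-IP control alone, no test between RNA kinds is given. Sln, sarcolipin, an atrial and skeletal inhibitor of SERCA, had 2 counts in all polyA libraries and 0 in all Ago2-IP libraries. Atp2b1, a plasma membrane calcium pump, fell by 0.55 (SE 0.134, edgeR adjusted p = 0.0059) and was at -0.41 (SE 0.113) between RNA kinds, past the threshold. Among channel subunits Cacnb2, the beta subunit of cardiac L-type channels, rose by 1.24 (SE 0.162, edgeR adjusted p = 6.8e-04) on the log2 scale. Cacnb1, another beta subunit, fell by 0.39 (SE 0.116, edgeR adjusted p = 0.017). Cacna1h, a T-type pore, was at 2.19 (SE 0.157) and Cacnb3 at -1.63 (SE 0.149) in Ago2-IP against polyA control, both past the threshold. Camk2a, a calmodulin-dependent kinase, rose by 1.12 (SE 0.164, edgeR adjusted p = 6.8e-04) and was at 2.28 (SE 0.132) in Ago2-IP against polyA control, where Calm2, a calmodulin gene, was at -0.67 (SE 0.146) and Slc8b1, the mitochondrial exchanger, at 0.57, each past the threshold.

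The reticulum chaperones had 10 genes tested. In polyA RNA with miR-106b 6 were lower and 1 higher, where 21.5% and 19% of all tested genes were, and in Ago2-IP against polyA control 9 were lower and 1 higher, where 34.6% and 35.1% were. Canx, calnexin, the membrane-bound relative of calreticulin, had 338 ± 27.7 CPM in polyA control and 233 ± 33.2 CPM with miR-106b (log2 -0.51, SE 0.119, edgeR adjusted p = 0.0046), and was at -0.61 (SE 0.0951) between RNA kinds. Pdia6, a disulfide isomerase, fell by 0.65 (SE 0.119, edgeR adjusted p = 0.0013) and was at -1.46 (SE 0.0996) in Ago2-IP against polyA control. Hspa5, the chaperone BiP, was at -0.21 (SE 0.114, edgeR adjusted p = 0.162) in polyA RNA and at -0.22 (SE 0.0903, edgeR adjusted p = 0.0328) between RNA kinds. Sdf4, a calcium binder of the Golgi lumen, was the 1 higher in both comparisons, at 0.40 (SE 0.130) and 0.52 (SE 0.109).
Of the store-operated entry genes beside Stim1, Saraf, its inhibitor, rose by 0.44 (SE 0.13, edgeR adjusted p = 0.014), while Stim2, the second sensor, fell by 0.38 (SE 0.118, edgeR adjusted p = 0.022) and Trpc1, a cation channel, by 0.79 (SE 0.251, edgeR adjusted p = 0.023). Orai1, the pore that STIM1 opens, was at 0.12 (SE 0.123, edgeR adjusted p = 0.458). Orai2, another pore, fell by 0.73 (SE 0.155, edgeR adjusted p = 0.0029) in polyA RNA and was at -2.12 (SE 0.156) in Ago2-IP against polyA control, Saraf at 0.78 (SE 0.0990), Orai1 at 0.43 (SE 0.108) and Stim2 at -0.32 (SE 0.13), each past the threshold.
In the mitochondrial uniporter Smdt1 rose by 0.32 (SE 0.108, edgeR adjusted p = 0.033) and Mcub fell by 0.70 (SE 0.246, edgeR adjusted p = 0.036) in polyA RNA, and they were at 0.63 (SE 0.0972) and -1.39 (SE 0.294) between RNA kinds, both past the threshold. Several of these polyA calls were lost when 1 library was left out. The edgeR adjusted p reached 0.0563 for Atp2b1 (without polyA control replicate 1 or 2), 0.0596 for Canx (control 2 or 3), 0.157 for Cacnb1 (control 1, 2 or 3), 0.0540 for Sdf4 (control 4), 0.0807 for Smdt1 (control 4 or miR-106b 2), 0.0857 for Casq1 (control 1, 2 or 4, or miR-106b 2, 3 or 4), 0.138 for Trpc1 (control 1, 2 or 3, or miR-106b 1 or 4), 0.177 for Stim2 (control 1, 2 or 3, or miR-106b 2) and 0.206 for Mcub (each control, or miR-106b 2 or 4). Between RNA kinds the call of Hspa5 was lost likewise, at up to 0.0789 (without polyA control 2 or 3, or Ago2-IP control 1, 3 or 4), that of Stim2 at up to 0.0758 (without polyA control 2, or Ago2-IP control 1 or 2), and those of Orai1, Sdf4 and Slc8b1 under library size scaling (0.330, 0.0753 and 0.166).

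**Figure D5:**
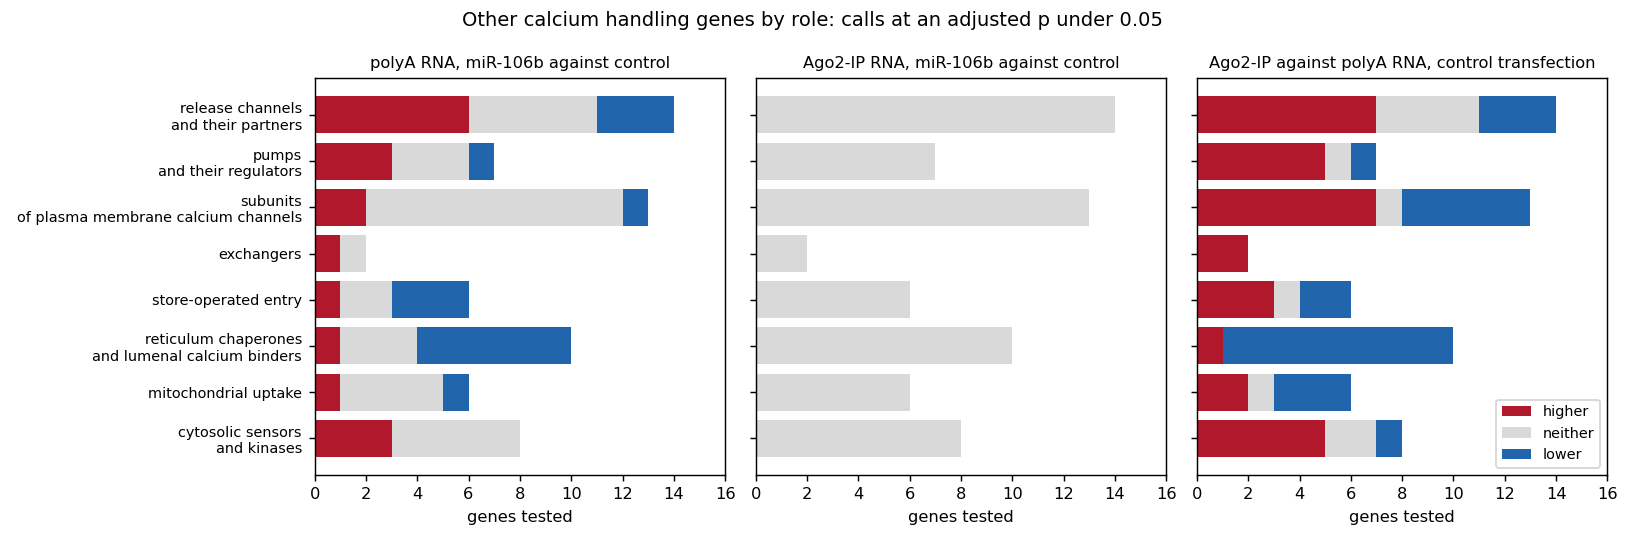
Number of tested genes of the calcium handling list in each of 8 roles (bars) that were higher, lower or neither at an adjusted p under 0.05 in 3 comparisons. The release channels and partners hold 6 higher and 3 lower genes in polyA RNA, the reticulum chaperones 1 higher and 6 lower, and no gene differs in Ago2-IP RNA.

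The promoters of the 10 genes were searched, from 250 bases before the start of transcription to 50 after it (RefSeq, GRCm38.p6), on both strands. The MEF2 motif, bound by a muscle transcription factor, was in 1 of 10, that of Casq2 at chr3:102086346-102086355 on the plus strand, 69 bases before its start, and in 3.70% of 27025 genes. It is printed with 10 bases on either side and the motif in capitals.
Casq2 promoter: attgcatgatTTATTTTTAGctcgaaacaa
The CArG box of serum response factor was in 0 of 10 and in 1.81% of genes. TATAAA was in 2 of 10 and in 15.7% of genes, in Calr 33 bases after the start and in Pln 219 bases before it. CATTCC, a site of TEAD factors, was in 1 of 10, Cacna1s, and in 16.6% of genes. A site of GATA factors was searched as its core with flanks, AGATAA. It was in 2 of 10, Pln and Slc8a1, and in 12.7% of genes. A motif absent from this window says nothing about the factor.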

How the data were processed

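PolyA and Ago2-IP RNA of cells labelled as JG cells was sequenced in 16 libraries (4 groups of 4 replicate cultures). According to the study's methods, the authors removed ribosomal RNA reads, aligned single-end 50-base reads to the GRCm38 transcriptome with Tophat2 and counted reads on genes with HTSeq, and the submitters' processing notes name TopHat2 2.0.10. The deposited values are raw counts for 46078 genes, not normalized. Libraries were grouped by their titles. Genes with at least 1 CPM in at least 3 of 4 libraries of any group were kept (14897).

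The counts were fitted under R 4.3.3 by edgeR 4.0.16 and limma 3.58.1 (TMM scaling, quasi-likelihood test with robust dispersion, two-sided, Benjamini-Hochberg, threshold 0.05), with DESeq2 1.42.0 as an alternative, and in Python 3.11.15. PolyA and Ago2-IP libraries were fitted separately for miR-106b against control, and all 16 together for the ratios. Fitted changes kept edgeR's default prior, and 2 was the prior for log2 CPM. CPM are scaled to library size only. The tests were tested on simulated counts. A library with 0 counts allows up to 3, or 0.317 CPM at the greatest depth and 1.16 CPM at the least, for counting error only. Alternatives were other size factors, library size alone, TMM within each RNA kind, no filter or at least 10 counts, DESeq2, a replicate block, 1 fit of all 16 libraries and leaving out each library. The p-values measure the spread between cultures of 1 line. Replicates of a group differed by more than sampling noise, and same-numbered libraries did not deviate together, with correlations from -0.39 to 0.22.

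The members and gene lists were chosen with earlier results of these data known. All 10 members were named. Tests between RNA kinds were planned for them too, but are given as values only, since the polyA libraries entered their choice. Of the list, named genes were the largest rise and largest fall past the threshold in each role with a mean of at least 5 CPM, and 15 paralogues and partners of members. Strit1 was not matched. Exon lengths and 3′UTRs came from GENCODE M21, and the miRNA and promoters from RefSeq. Proteins were not used here.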

Additional observations from a re-analysis of the deposited data

Results flagged for a closer look

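Among the 40 sets of 4 libraries of the 10 genes, 1 held a library far from the rest, Jph2 in Ago2-IP control replicate 4 at 1310.3 CPM, where chance gives about 1 in 20. In Jph2 and Atp2a2 every miR-106b library lay above the control mean in polyA RNA and below it in Ago2-IP RNA. The mean differences were 436 CPM and -57.9 CPM for Jph2, and 3285 CPM and -879 CPM for Atp2a2, and this contrast between RNA kinds was not tested.

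Of the 66 tested genes of the calcium list, 22 were called by edgeR for the change of the Ago2:polyA ratio with miR-106b, 19 lower (with Atp2a1) and 3 higher, beside 27.3% of all tested genes (19.7% lower and 7.61% higher). The values of 13 of them that the text names follow, besides Jph1 at -1.09 and Slc8a2 at -1.81 (log2), which it names too. Part of these were named for the size of their polyA change, which the ratio contains, so their values are a description. Among release partners and pumps its log2 values were -1.43 for Trdn, -1.48 for Hrc, -1.53 for Atp2a3 and -3.58 for Atp2a1, the last with 3 counts in all Ago2-IP miR-106b libraries together. Atp2a1 passed the filter on low counts through Ago2-IP control alone, so the direction of its value was fixed by the filter and it is no support for a change. Among channel subunits and kinases they were -1.47 for Cacnb2, -1.30 for Cacna1h and -1.22 for Camk2a. Smaller falls were -0.62 for Saraf, -0.74 for Sdf4 and -0.54 for Smdt1. Rises were 0.64 for Itpr2, 0.98 for Itpr3 and 0.47 for Pdia6.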

How the results depend on the processing

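Among the 10 genes, the alternatives run gave 0 calls for miR-106b within Ago2-IP RNA, except 1, Atp2a2, without the filter on low counts. Over the 74-gene list, the polyA count of 33 ran from 21 to 37 when 1 library was left out, with 21 without polyA control replicate 2, and from 29 to 34 under the settings that kept all libraries. Leaving out a library gave 0 to 0 list genes and 0 to 0 members in Ago2-IP RNA, 53 to 57 list genes in Ago2-IP against polyA control, 34 to 37 with miR-106b, and 19 to 24 for the ratio. Over all genes, Ago2-IP RNA gave 20 calls without the filter, 2 with at least 10 counts in every library, 1 with the replicate block, and 0 to 40 with 1 library left out. Since replicate numbers did not pair the libraries, the replicate block was an alternative only. It left 33 list genes in polyA RNA, 56 between RNA kinds in control, 36 with miR-106b and 22 for the ratio. Scaling by library size alone moved the share of called genes that were higher from 50.3% to 37.9% between RNA kinds in control, from 47.3% to 34.0% with miR-106b and from 27.9% to 46.5% for the ratio. Depth limits Cacna1s, with 14 to 60 counts per library.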
